A study of Mus musculus with 16 samples.

Results

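Estrogen receptor alpha (Esr1) and 7 other transcription factors that act upstream of the xenobiotic genes of the liver were examined in aged mice with and without the hepatic glucagon receptor. The 8 genes were chosen by symbol from the 41079 genes of the count table, and they were selected on earlier results of the same knockout contrasts. All 8 passed the filter on low counts, as did 16742 genes in all. They are Esr1, Nr1i2, Nr1i3, Ahr, Rxra, Hnf4a, Cebpa and Foxa2. Because the knockout contrasts were in view when the genes were chosen, their LKO values are given as a description with no test, and only the sex difference of the controls was tested for them. The lists of other genes used below were also chosen with earlier results of these data known, so counts over a list are descriptions.

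Liver RNA was sequenced from 4 male CRE- mice, 4 male LKO mice, 4 female CRE- mice and 4 female LKO mice, all on the C57BL/6J background and 20 to 22 months old. LKO mice carried a floxed Gcgr gene and Cre driven by the albumin promoter, which is active in the hepatocyte lineage, and in which cells it recombined was not measured here. CRE- mice carried the floxed gene without Cre, so an effect of Cre itself cannot be told apart from the loss of Gcgr. The samples were whole liver, in which fewer cells of a type and less RNA per cell cannot be told apart. Library totals lay between 33268424 and 56488920 reads, with medians of 44288170 in male CRE-, 38475729.5 in male LKO, 46840916 in female CRE- and 37348750.5 in female LKO mice. Levels are given as CPM, counts scaled to library size by TMM, and levels of different genes are compared as RPKM, which is CPM scaled to the length of the exons.

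Gcgr, the deleted gene, was at 190, 193, 127 and 190 CPM in male CRE- replicates 1 to 4 and at 117, 136, 130 and 160 CPM in male LKO replicates 1 to 4. Female values lay at 162, 208, 201 and 180 CPM in CRE- replicates 1 to 4 and at 48.8, 132, 119 and 93.6 CPM in LKO replicates 1 to 4. The groups overlapped in males and did not overlap in females. The log2 fold change was -0.37 (SE 0.24) in males (edgeR quasi-likelihood F, Benjamini-Hochberg adjusted p = 0.671). It was -0.93 (SE 0.25) in females (Benjamini-Hochberg adjusted p = 0.0443 by edgeR quasi-likelihood F). When each female mouse was left out in turn, the female call held only without LKO replicate 2, and the adjusted p from edgeR reached 0.136 elsewhere. The count covers the whole gene, exons outside the deleted segment included, so a remaining count does not go against a label. Xist was between 137 and 399 CPM in female libraries and at most 0.243 CPM in male libraries, and Ddx3y was between 38.5 and 91.5 CPM in males with no reads in females.

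Albumin was the most abundant of the hepatocyte markers, between 41687 and 105500 CPM in the 16 libraries, so the tissue carried the transcripts of liver. None of the 7 hepatocyte markers tested passed the threshold in edgeR in either sex, where 1 in males and 3 in females had an unadjusted p under 0.05, and DESeq2 called 0 in males and 2 in females. In females all 7 had log2 fold changes below 0, with a median of -0.69, and their sum did not overlap, at 118210 to 142530 CPM in CRE- and 60167 to 98714 CPM in LKO mice. A pair of libraries stood apart from the rest of their group. Female LKO replicate 1 had a median correlation of 0.917 with the other libraries of its group, against at least 0.944 for the others. Male CRE- replicate 3 had 0.946, against at least 0.967 for the other male controls. Summed macrophage markers were at 4004 CPM in female LKO replicate 1, while the other 3 female LKO mice were between 1178 and 2521 CPM and the female controls between 645 and 1216 CPM. Summed markers of pericentral hepatocytes were at 1900 CPM in male CRE- replicate 3, while the other 3 male controls were between 7265 and 11120 CPM. LKO fold changes of the 8 genes are therefore also given without these mice where the log2 value moved by over 0.1.

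The estrogen receptor is a ligand-dependent nuclear receptor that in the liver takes part in the sex bias of metabolism. PXR (Nr1i2) and CAR (Nr1i3) are nuclear receptors that bind foreign compounds or respond to them, and they act on drug-metabolizing genes as heterodimers with RXR alpha (Rxra), while AHR is a ligand-activated factor of another family that pairs with ARNT. HNF4 alpha is an orphan nuclear receptor, and C/EBP alpha and FOXA2 belong to the leucine zipper and forkhead families, so these 3 factors set the hepatocyte program on which the sensors act.

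On the RPKM scale the 8 genes kept nearly 1 order in all groups. Cebpa was highest, with group means between 114 and 228 RPKM, and Esr1 lowest, with group means between 1.12 and 5.05 RPKM. Hnf4a ranked next to Cebpa, between 110 and 124 RPKM, and in female LKO mice the values of Cebpa (114 ± 48.8 RPKM, SD, 4 mice) and Hnf4a (110 ± 17.4 RPKM, SD, 4 mice) could not be ordered beyond their spread. Rxra and Nr1i3 exchanged places between groups and overlapped in each of them. Rxra had group means between 69.2 and 78.3 RPKM and Nr1i3 between 63.6 and 94.5 RPKM. Nr1i2 followed, between 29.3 and 35.3 RPKM. Foxa2 and Ahr also exchanged places, Foxa2 being between 9.17 and 15.2 RPKM and Ahr between 6.47 and 10.8 RPKM. The 8 genes lie on 6 chromosomes of GRCm39, with Rxra, Hnf4a and Foxa2 together on chromosome 2.

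Esr1, on chromosome 10 from 4561989 to 4955633, was lower in LKO mice of both sexes. In males it was at 26.1, 22.9, 39.4 and 21.4 CPM in CRE- replicates 1 to 4 and at 14.2, 11.7, 10.7 and 6.97 CPM in LKO replicates 1 to 4. In females it was at 57.2, 55.2, 40.0 and 44.8 CPM in CRE- replicates 1 to 4 and at 30.01, 16.8, 16.04 and 16.1 CPM in LKO replicates 1 to 4. Each LKO mouse lay below each control of its sex. The lowest value in any library rested on 258 reads, where both mates of a read pair can count. Among female LKO mice, replicate 1 stood above the other 3, which were close together. The mean of the LKO mice was 39.7% of the control mean in males and 40.1% in females.

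The log2 fold change of Esr1 was -1.33 (SE 0.26) in males and -1.32 (SE 0.26) in females, and these comparisons share no mouse. The difference between the sexes in this fold change was 0.01 (SE 0.36). Both contrasts were in view when the gene was chosen, so nothing is read from their likeness. Without male CRE- replicate 3, the highest male control, the male value was -1.12, and without female LKO replicate 1 the female value was -1.57. In edgeR 1 of the 8 genes lay past the adjusted threshold in males, beside 0.454% of all genes tested, and 1 in females, beside 4.24%. Nothing is read from these counts, since the contrasts chose the genes.

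Between sexes the order of the Esr1 group means was female CRE- (49.3 ± 8.23 CPM, SD, 4 mice), male CRE- (27.4 ± 8.23 CPM, SD, 4 mice), female LKO (19.7 ± 6.85 CPM, SD, 4 mice) and male LKO (10.9 ± 2.99 CPM, SD, 4 mice). The middle groups overlapped, as female LKO replicate 1 was above 3 of the 4 male controls. Each female control was above each male control, by a narrow margin, since the lowest female control was at 40.0 CPM and the highest male control at 39.4 CPM. The sex difference in controls was 0.85 in log2 (SE 0.26, 95% interval 0.30 to 1.39), higher in females (Benjamini-Hochberg adjusted p = 0.170 by edgeR quasi-likelihood F). It therefore did not pass the threshold, and with each control left out it was between 0.75 and 1.06, with an adjusted p from edgeR between 0.106 and 0.382. In LKO mice the female mean was above the male mean by a log2 difference of 0.86 (SE 0.26), which was not tested.

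**Figure D1:**
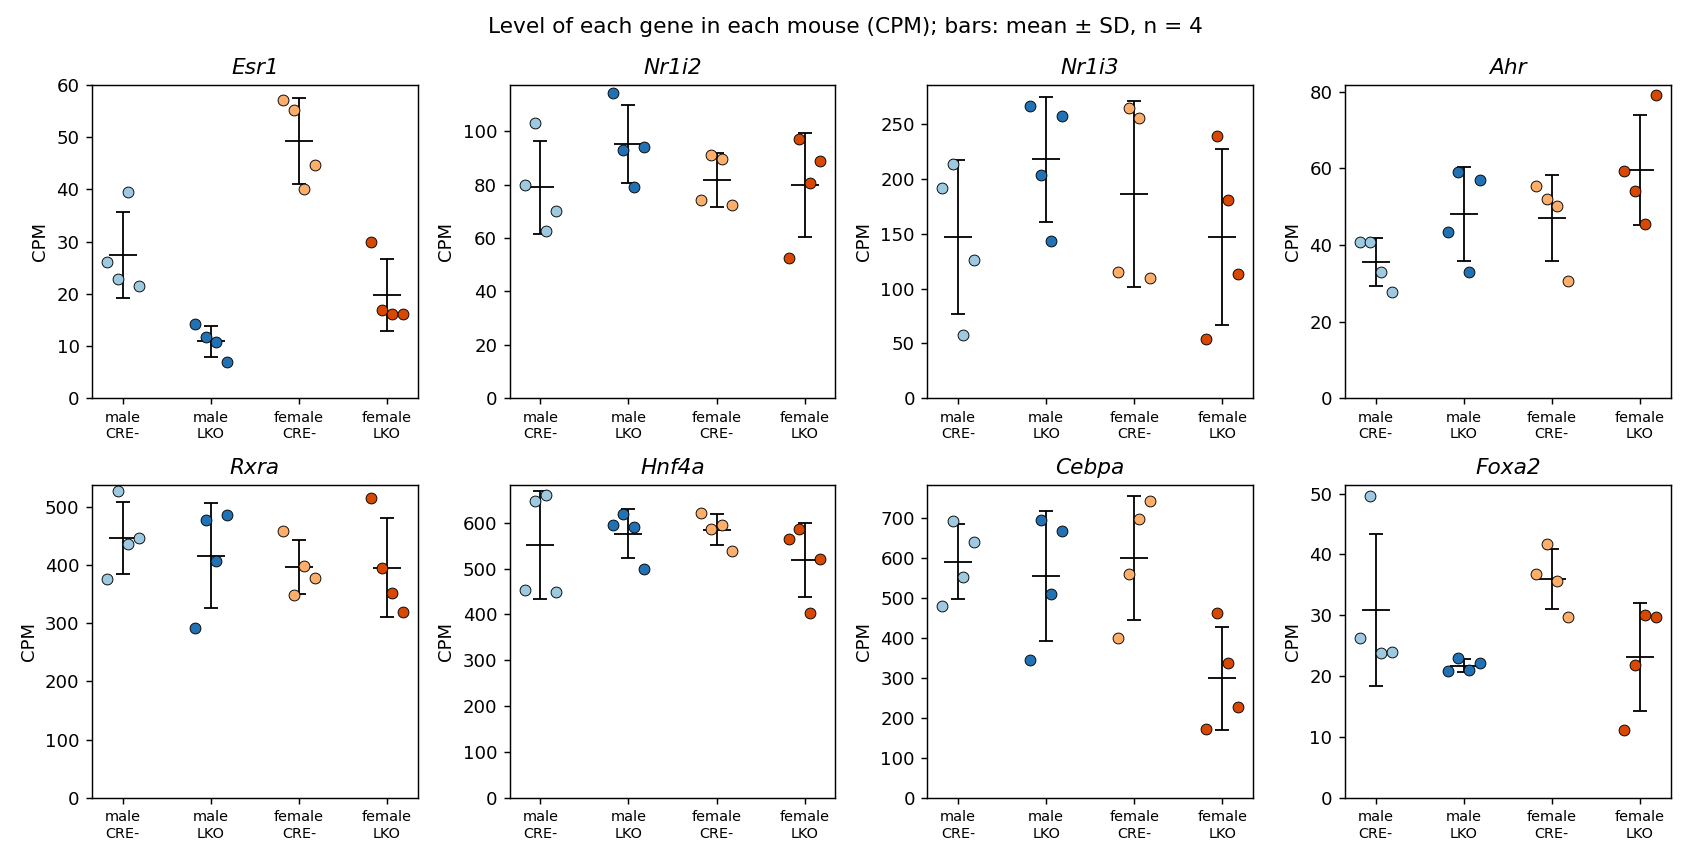
Level of each of the 8 genes in each of the 16 mice, in CPM on a linear axis from 0, by group, with the mean and SD of 4 mice. Esr1 in LKO mice lies between 6.97 and 14.2 CPM in males and between 16.04 and 30.01 CPM in females, below all controls of the same sex, while the other 7 genes overlap between LKO and CRE- mice of a sex, except Foxa2 in males.

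Nr1i2, which encodes PXR, the sensor of bile acids and many drugs, lies on chromosome 16 from 38068711 to 38115211. It was at 80.0, 103, 62.8 and 70.2 CPM in male CRE- replicates 1 to 4 and at 114, 93.2, 79.0 and 94.3 CPM in male LKO replicates 1 to 4. Female values lay at 74.2, 91.3, 89.5 and 72.2 CPM in CRE- mice and at 52.5, 97.1, 80.7 and 89.0 CPM in LKO mice. The groups overlapped in both sexes, and the lowest value of the 16 was that of female LKO replicate 1. The log2 fold change was 0.27 (SE 0.20) in males and -0.04 (SE 0.20) in females, and the male value was 0.16 without CRE- replicate 3 and the female value 0.14 without LKO replicate 1.

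Nr1i3, which encodes CAR, lies on chromosome 1 from 171041503 to 171046414 and had the largest coefficient of variation of the 8 genes in each group except male LKO mice, where Cebpa and Esr1 varied more. In males it was at 192, 213, 58.0 and 126 CPM in CRE- replicates 1 to 4 and at 267, 204, 143 and 258 CPM in LKO replicates 1 to 4. In females it was at 115, 265, 255 and 110 CPM in CRE- replicates 1 to 4 and at 54.0, 239, 181 and 114 CPM in LKO replicates 1 to 4. The lowest values were those of male CRE- replicate 3 and female LKO replicate 1, the libraries that stood apart. The same libraries had the lowest sums of the pericentral hepatocyte markers, 1900 and 2652 CPM, against at least 5185 CPM in the other 14. The part of this difference in lobular markers in the Nr1i3 values was not tested. The log2 fold change of Nr1i3 was 0.56 (SE 0.45) in males and 0.28 without male CRE- replicate 3. In females it was -0.34 (SE 0.45), and -0.04 without female LKO replicate 1. The other ends of the ranges with each mouse left out were 0.80 in males, without CRE- replicate 2, and -0.68 in females, without LKO replicate 2.

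Nr1i2 and Nr1i3 went together over the 16 libraries, with Pearson r at 0.889 and Spearman rho at 0.868 for log2 CPM. After the group means were taken out r was 0.879. With the group means left in, r was 0.765 without the 2 libraries farthest from the median of Nr1i2. The libraries that stood apart are among the low points of both genes, and the value is a description over mice of 4 groups. Other pairs went the other way, and the lowest r after the group means were taken out was that of Esr1 with Cebpa, at -0.651. For that pair r was 0.0295 with the group means left in.

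Ahr, on chromosome 12 from 35547978 to 35584988, was at 40.8, 40.7, 32.8 and 27.8 CPM in male CRE- replicates 1 to 4 and at 43.4, 59.1, 32.8 and 57.1 CPM in male LKO replicates 1 to 4. Female values lay at 55.5, 51.9, 50.2 and 30.7 CPM in CRE- mice and at 59.3, 54.0, 45.5 and 79.3 CPM in LKO mice. The groups overlapped, and the highest value was that of female LKO replicate 4. The log2 fold change was 0.44 (SE 0.23) in males and 0.34 (SE 0.23) in females, and the female value was 0.17 without that mouse.

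Rxra, the common partner of PXR and CAR, lies on chromosome 2 from 27566457 to 27653331. It ranged from 376 to 526 CPM in male CRE-, 292 to 486 CPM in male LKO, 349 to 459 CPM in female CRE- and 320 to 514 CPM in female LKO mice. Between LKO and CRE- mice the log2 fold change was -0.10 (SE 0.20) in males and 0.00 (SE 0.20) in females, where it was -0.14 without LKO replicate 1.

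Hnf4a, on chromosome 2 from 163348731 to 163414827, ranged from 448 to 660 CPM in male CRE-, 499 to 620 CPM in male LKO, 539 to 621 CPM in female CRE- and 403 to 586 CPM in female LKO mice. In female controls its coefficient of variation was 5.88%, the lowest of the 8 genes in that group. In log2 the fold change was 0.06 (SE 0.18) in males and -0.17 (SE 0.18) in females, so that neither was larger than its SE.

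Cebpa, on chromosome 7 from 34818718 to 34821353, was the gene whose fold changes differed most between the sexes beside Nr1i3. In males it was at 480, 692, 553 and 639 CPM in CRE- replicates 1 to 4 and at 344, 696, 510 and 668 CPM in LKO replicates 1 to 4, which overlapped widely. In females it was at 399, 560, 697 and 743 CPM in CRE- replicates 1 to 4 and at 172, 462, 338 and 227 CPM in LKO replicates 1 to 4. Female LKO replicates 1, 3 and 4 lay below all female controls, and replicate 2 was above CRE- replicate 1. Its fitted log2 fold change was -0.09 (SE 0.30) in males and -1.002 (SE 0.30) in females, where the mean of the LKO mice was 49.9% of that of the controls. The difference between the sexes was -0.91 (SE 0.42), a description like the others. Without female LKO replicate 1, in which Cebpa was lowest and the macrophage markers highest, the female value was -0.79.

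Foxa2, on chromosome 2 from 147884797 to 147888889, was at 26.2, 49.5, 23.7 and 23.96 CPM in male CRE- replicates 1 to 4 and at 20.8, 23.0, 20.9 and 22.2 CPM in male LKO replicates 1 to 4. The male groups did not overlap, but the difference rested on CRE- replicate 2. The male log2 fold change was -0.51 (SE 0.28), -0.18 without that mouse and -0.62 without CRE- replicate 3. In females Foxa2 was at 36.8, 41.8, 35.6 and 29.6 CPM in CRE- mice and at 11.1, 21.8, 29.98 and 29.8 CPM in LKO mice, so LKO replicates 3 and 4 were level with the lowest control. The female log2 fold change was -0.63 (SE 0.28), and -0.38 without LKO replicate 1.

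Groups did not overlap for 2 of the 8 genes in males, Esr1 and Foxa2, beside 6.49% of all genes tested, and for 1 of 8 in females, Esr1, beside 11.6%. Nothing is read from these counts either. The median log2 fold change of the 8 genes was -0.02 in males and -0.26 in females, beside -0.01 and 0.04 over all genes tested.

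**Figure D2:**
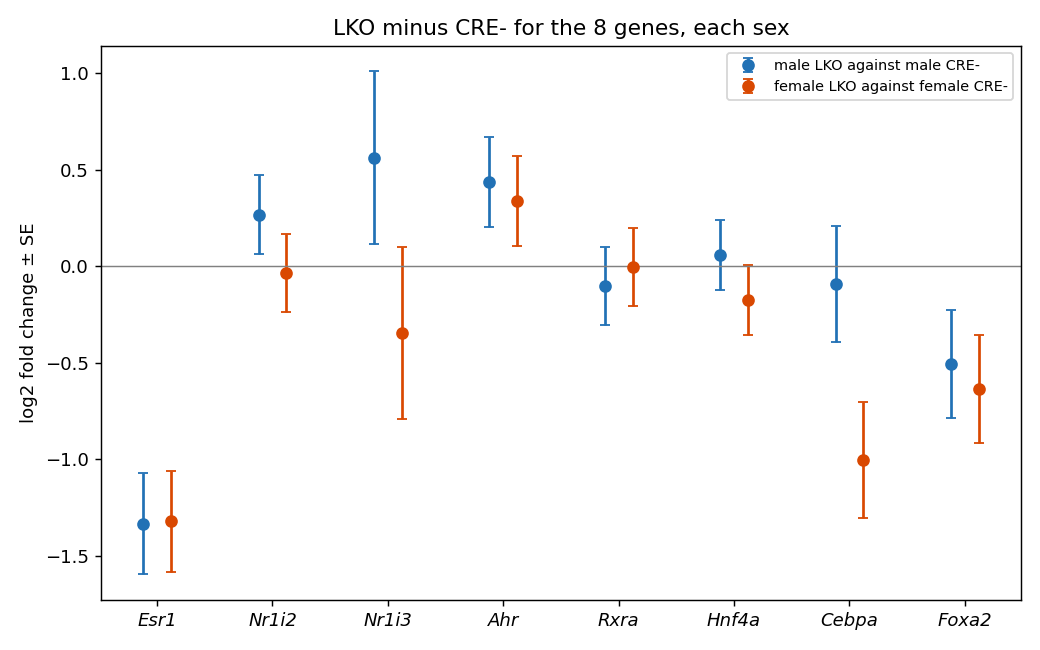
Log2 fold change of LKO against CRE- mice for each of the 8 genes in males and in females, with the SE from the joint fit as bars. Esr1 lies at -1.33 in males and -1.32 in females, Cebpa at -0.09 and -1.002, and Rxra at -0.10 and 0.00.

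In the comparison of female with male controls, which is not the contrast that chose the genes but uses the same controls, none of the 8 genes passed (edgeR quasi-likelihood F, Benjamini-Hochberg threshold of 0.05), where 0.920% of all genes tested did. Esr1 alone had an unadjusted p under 0.05 in edgeR, and DESeq2 also called 0 of 8, with 1 at an unadjusted p under 0.05. Groups did not overlap for 1 of 8, Esr1, beside 7.54% of all genes tested, a share too near to a single gene to count as a result about the set. The intervals of the other genes hold 0 and leave room for moderate differences. For Rxra the log2 difference, female minus male, was -0.17 (95% interval -0.60 to 0.25), and for Hnf4a it was 0.08 (95% interval -0.30 to 0.47). The interval was widest for Nr1i3, at 0.34 (95% interval -0.61 to 1.28). For Ahr the difference was 0.41 (95% interval -0.09 to 0.90), for Foxa2 0.22 (95% interval -0.37 to 0.81), for Nr1i2 0.05 (95% interval -0.38 to 0.48) and for Cebpa 0.02 (95% interval -0.61 to 0.65).

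Partners and coregulators of these factors were a list of 23 genes, all tested. None passed in males in edgeR, where 1 higher and 1 lower had an unadjusted p under 0.05, and DESeq2 called 1. In females 1 fell and 22 did not pass, which is 4.35% and near the 4.24% of all genes, so the count is not a result about the list, and the list's median log2 fold change was 0.10. The gene was Rxrg, which encodes RXR gamma, a relative of Rxra that is scarce in liver. It was at 7.74, 13.003, 9.34 and 14.2 CPM in female CRE- replicates 1 to 4 and at 5.34, 5.46, 7.55 and 2.83 CPM in female LKO replicates 1 to 4, each below all controls. Its log2 fold change was -1.06 (SE 0.27, Benjamini-Hochberg adjusted p = 0.0373 by edgeR quasi-likelihood F), and leaving out each mouse in turn kept the call in 3 of 8 fits, those without CRE- replicate 1 and without LKO replicates 2 and 3. The Rxrg call was also lost with the 2 female groups alone (Benjamini-Hochberg adjusted p = 0.121 by edgeR). The most abundant of the list, Hsp90ab1, a chaperone of AHR and other receptors, had log2 fold changes of 0.06 (SE 0.17) in males and -0.24 (SE 0.17) in females.

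Of 31 other nuclear receptors 29 were tested. None passed in males in edgeR or DESeq2, where 1 higher and 3 lower had an unadjusted p under 0.05 in edgeR. In females 1 fell, which is 3.45% of the list and below the 4.24% of all genes, so this count is not a result about the list either. That gene was Nr5a2, which encodes LRH-1, at 69.4 ± 9.99 CPM (SD, 4 mice) in female CRE- and 46.3 ± 6.51 CPM (SD, 4 mice) in female LKO mice. The fitted log2 fold change was -0.58 (SE 0.16, edgeR quasi-likelihood F, Benjamini-Hochberg adjusted p = 0.0483), and leaving out each mouse in turn kept the call in 1 of 8 fits, that without LKO replicate 2. The Nr5a2 call was also lost with no filter on low counts (Benjamini-Hochberg adjusted p = 0.069 by edgeR) and with the 2 female groups alone (Benjamini-Hochberg adjusted p = 0.115 by edgeR). The receptors with a negative log2 fold change numbered 21 of 29 in each sex, comparisons that share no mouse. The list's medians were -0.17 in males and -0.27 in females. This list was chosen with earlier results of the data known, so nothing is read from the likeness. Ppara, the most abundant, had log2 fold changes of -0.76 (SE 0.33) in males and -0.27 (SE 0.33) in females.

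Among 17 other transcription factors of hepatocytes, all tested, none passed in males in edgeR, where 1 higher and 1 lower had an unadjusted p under 0.05, and DESeq2 called 1. In female against male controls no partner, other nuclear receptor or other hepatocyte factor passed in edgeR, where 4, 6 and 4 had an unadjusted p under 0.05. Creb3l3, the most abundant, had log2 fold changes of 0.19 (SE 0.26) in males and -0.26 (SE 0.27) in females.

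Target genes of the receptors and factors were taken from 5 lists, of which 81 of 83 genes were in the table and 78 were tested. The lists were chosen with earlier results of these data known. The share over all genes is therefore given beside a count as a description only. In males no target passed in edgeR after Benjamini-Hochberg adjustment, where 11 higher and 6 lower had an unadjusted p under 0.05, and DESeq2 called 2. The Cyp3a genes named below as falling in females were scarce in males, so their male values say little about a fall. Over all genes tested 0.221% were called higher and 0.233% lower in males. In females 1 rose and 10 fell of the 78 tested, beside 2.09% called higher and 2.15% called lower over all genes tested. The median log2 fold change of the targets was 0.13 in males and -0.39 in females, against medians of -0.01 and 0.04 over all genes. Leaving out female CRE- replicates 1 to 4 in turn gave 7, 3, 5 and 3 in place of 11, and leaving out female LKO replicates 1 to 4 gave 6, 14, 9 and 7. No target passed the threshold for the difference between the sexes in edgeR, where 22 had an unadjusted p under 0.05 and DESeq2 called 4, so a call in females alone does not show that the sexes differ.

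The targets of PXR and CAR, the genes through which Nr1i2 and Nr1i3 are usually read, held 6 of the 10 genes that fell in females, of 34 tested, beside 2.15% called lower over all genes. These were Cyp3a41b, Papss2, Cyp3a44, Cyp3a16, Cyp3a41a and Ces2a, all with LKO mice below all controls. Of 8 fits that left out a mouse, the call of Cyp3a16 held in 3 (without LKO replicates 2, 3 and 4), that of Cyp3a41a in 4 (without each LKO mouse) and that of Ces2a in 2 (without CRE- replicate 1 and LKO replicate 2). The Cyp3a genes encode cytochromes P450 that oxidize drugs and steroids. Cyp3a44, on chromosome 5 from 145710793 to 145742701, was at 398, 331, 191 and 205 CPM in female CRE- replicates 1 to 4 and at 79.9, 16.4, 13.9 and 46.6 CPM in female LKO replicates 1 to 4. Its log2 fold change was -2.84 (SE 0.48, Benjamini-Hochberg adjusted p = 0.00697 by edgeR quasi-likelihood F), and the call held without any 1 mouse but not in a fit of the 2 female groups alone (Benjamini-Hochberg adjusted p = 0.0501 by edgeR).

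Cyp3a41b fell in females, its controls being at 229 ± 56.7 CPM (SD, 4 mice) and its LKO mice at 13.4 ± 10.7 CPM (SD, 4 mice), a log2 fold change of -4.10 (SE 0.55, edgeR quasi-likelihood F, Benjamini-Hochberg adjusted p = 0.00274), and this call held in all fits run. Cyp3a41b and Cyp3a41a are near-identical copies, so the division of reads between them is uncertain. Papss2, which makes the sulfate donor of conjugation reactions, fell in females, its controls being at 295 ± 18.03 CPM (SD, 4 mice) and its LKO mice at 122 ± 36.7 CPM (SD, 4 mice), a log2 fold change of -1.28 (SE 0.21, Benjamini-Hochberg adjusted p = 0.00651 by edgeR quasi-likelihood F). In males Papss2 had a log2 fold change of -0.83 (SE 0.21, edgeR quasi-likelihood F, Benjamini-Hochberg adjusted p = 0.109), past the threshold in DESeq2, and each LKO mouse lay below each control. The other target that DESeq2 called in males, Cyp2a4, was higher, by 3.26 in log2 (SE 0.81, Benjamini-Hochberg adjusted p = 0.106 by edgeR quasi-likelihood F) and by 2.42 without LKO replicate 1, with each LKO mouse above each control. The female call of Papss2 held without any 1 mouse but not with the 2 female groups alone (Benjamini-Hochberg adjusted p = 0.0501 by edgeR).

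Cyp3a11, the most abundant gene of the list and the usual reporter of PXR, differed from these neighbours on chromosome 5. Female values lay at 2253, 2277, 2846 and 2075 CPM in CRE- replicates 1 to 4 and at 2345, 5339, 2682 and 4761 CPM in LKO replicates 1 to 4, which overlapped. In males it was at 2550, 3366, 3535 and 2657 CPM in CRE- replicates 1 to 4 and at 6708, 3966, 4244 and 5032 CPM in LKO replicates 1 to 4, which did not. Between LKO and CRE- mice the log2 fold change was 0.72 (SE 0.27) in males and 0.68 (SE 0.27) in females, and neither passed (Benjamini-Hochberg adjusted p = 0.363 and 0.150 by edgeR quasi-likelihood F). Of the 34 targets, 26 had a log2 fold change above 0 in males and 11 in females, with medians of 0.42 and -0.33. The Cyp3a genes that are scarce in males are included in these male values.

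In female against male controls 5 of these 34 targets were higher and none lower, and 29 did not pass, so 14.7% of the list passed beside 0.920% of all genes tested. Cyp3a41b was at 221, 286, 153 and 255 CPM in female CRE- replicates 1 to 4, while male CRE- replicates 1 to 4 held 1, 1, 2 and 1 reads of it (Benjamini-Hochberg adjusted p = 2.58e-07 by edgeR quasi-likelihood F). Cyp3a16 was at 232 ± 73.1 CPM (SD, 4 mice) in female and 2.89 ± 0.462 CPM (SD, 4 mice) in male controls, a log2 difference of 6.32 (SE 0.52). Cyp3a44 was at 281 ± 99.9 CPM (SD, 4 mice) and 2.68 ± 0.964 CPM (SD, 4 mice), a log2 difference of 6.71 (SE 0.58). The 4 Cyp3a genes that fell in female LKO mice were thus nearly confined to females among the controls, while for Cyp3a11 the log2 difference of female from male controls was -0.36 (SE 0.27). In male LKO replicates 1 to 4 Cyp3a41b had 0, 2, 1 and 1 reads. Male LKO means were 0.493 CPM for Cyp3a41a, 3.95 CPM for Cyp3a44 and 5.86 CPM for Cyp3a16. At such levels the male comparison says little about a fall of these genes.

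The promoters of these Cyp3a genes are shown because HNF4 alpha, FOXA2 and the RXR heterodimers bind short motifs of the kind found there, and the 5 were picked with their values known, as the 4 Cyp3a genes that fell in females and the most abundant gene of the list. Other Cyp3a genes of the list did not pass, and their promoters were not compared here. The sequences are those of RefSeq, from its table on GRCm38.p6, cut to the 250 bases before the annotated start, and each was placed by an exact match on GRCm39. Capitals mark the motifs searched, on both strands: AGGTCA, a site of nuclear receptors, TGTTTAC, a forkhead motif, and CAAAGTCCA, an HNF4-type motif, which do not overlap here. Of 32851 promoter windows of this length, 14% hold AGGTCA, 3.17% TGTTTAC and 0.384% CAAAGTCCA.
Cyp3a11, chr5:145816665-145816914, minus strand: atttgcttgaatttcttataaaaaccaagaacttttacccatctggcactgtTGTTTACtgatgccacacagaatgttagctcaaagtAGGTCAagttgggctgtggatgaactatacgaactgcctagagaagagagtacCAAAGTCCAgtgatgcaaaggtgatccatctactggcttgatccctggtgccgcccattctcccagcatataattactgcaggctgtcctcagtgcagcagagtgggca
Cyp3a16, chr5:145406534-145406783, minus strand: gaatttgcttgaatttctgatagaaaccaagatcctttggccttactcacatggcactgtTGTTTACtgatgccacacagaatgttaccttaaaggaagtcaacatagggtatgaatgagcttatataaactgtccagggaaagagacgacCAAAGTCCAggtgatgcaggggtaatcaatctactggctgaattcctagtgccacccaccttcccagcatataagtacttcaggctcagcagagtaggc
Cyp3a41a, chr5:145656947-145657196, minus strand: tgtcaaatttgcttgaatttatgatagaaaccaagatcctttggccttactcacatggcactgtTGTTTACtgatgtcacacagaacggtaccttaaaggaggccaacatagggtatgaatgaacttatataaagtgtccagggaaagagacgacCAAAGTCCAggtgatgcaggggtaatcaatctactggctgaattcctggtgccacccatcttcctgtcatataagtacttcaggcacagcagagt
Cyp3a44, chr5:145742685-145742934, minus strand: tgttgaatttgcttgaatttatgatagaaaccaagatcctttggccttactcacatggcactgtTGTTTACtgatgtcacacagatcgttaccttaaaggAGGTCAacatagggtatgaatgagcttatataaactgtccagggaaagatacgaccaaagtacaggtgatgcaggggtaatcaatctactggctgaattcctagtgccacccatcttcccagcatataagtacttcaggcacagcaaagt

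The forkhead motif stands in all 5 windows, that of Cyp3a41b included, which is the same as Cyp3a41a at 249 of 250 bases. It begins 198 bases before the start in Cyp3a11, 190 in Cyp3a16 and 186 in Cyp3a41a, Cyp3a41b and Cyp3a44. The HNF4-type motif stands in Cyp3a11, Cyp3a16, Cyp3a41a and Cyp3a41b, and these letters are not in the window of Cyp3a44. The AGGTCA motif stands in Cyp3a11 and Cyp3a44. The window of Cyp3a44 is the same as that of Cyp3a41a at 236 of 250 bases. That of Cyp3a16 shares long runs of letters with both at shifted places. These windows are therefore not separate observations of a motif. A match is a description of the letters and not of binding.

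For the factors themselves, 7 of the 8 genes had a window and 12 windows were searched, also for TGACG and TGACGTCA, the core and the palindrome of the cyclic AMP response element, and for GCGTG, the core bound by AHR and ARNT. TGACG, which the palindrome contains, is in 17.8% of all windows, the palindrome in 1.55% and GCGTG in 28.2%. Neither form of the response element was found in any of the 12 windows. AGGTCA was found in 1 of the Rxra windows and GCGTG in 2 of the Foxa2 windows. Esr1, the gene with the largest fold changes, has 2 windows, shown here for that reason, and none of the 6 motifs was found in either, so they have no capitals.
Esr1, window 1, chr10:4561739-4561988, plus strand: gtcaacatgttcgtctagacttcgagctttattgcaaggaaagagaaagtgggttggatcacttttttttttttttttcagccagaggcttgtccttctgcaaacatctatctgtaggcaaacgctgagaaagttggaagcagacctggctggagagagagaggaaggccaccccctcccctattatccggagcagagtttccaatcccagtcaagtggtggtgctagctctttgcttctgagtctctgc
Esr1, window 2, chr10:4659908-4660157, plus strand: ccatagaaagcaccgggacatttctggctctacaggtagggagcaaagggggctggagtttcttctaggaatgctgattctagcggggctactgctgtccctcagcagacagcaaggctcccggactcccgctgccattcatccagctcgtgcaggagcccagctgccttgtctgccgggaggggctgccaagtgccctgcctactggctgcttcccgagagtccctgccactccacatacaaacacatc

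The first Esr1 window ends at the base before the start of the gene in the count table, and the second lies within the gene. The count of Esr1 reads does not tell transcripts from these starts apart.

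Targets of AHR were 9 genes, all tested, and none passed in either sex in edgeR or DESeq2, where 1 higher in males and 2 lower in females had an unadjusted p under 0.05 in edgeR. Cyp1a2, the most abundant, was at 359, 496, 112 and 355 CPM in male CRE- replicates 1 to 4 and at 578, 666, 544 and 526 CPM in male LKO replicates 1 to 4. The lowest of these was again male CRE- replicate 3. Its log2 fold change was 0.81 (SE 0.40) in males and 0.51 without that mouse, and -0.68 (SE 0.40) in females and -0.37 without female LKO replicate 1. The list's median was 0.32 in males and 0.02 in females.

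Targets of HNF4 alpha were 17 genes, all tested. None passed in males in edgeR or DESeq2, where 1 higher had an unadjusted p under 0.05 in edgeR. In females 16 of 17 log2 fold changes were below 0, with a median of -0.45. Otc, an enzyme of the urea cycle, fell in females, its controls being at 517 ± 114 CPM (SD, 4 mice) and its LKO mice at 215 ± 121 CPM (SD, 4 mice), a log2 fold change of -1.27 (SE 0.34, edgeR quasi-likelihood F, Benjamini-Hochberg adjusted p = 0.0448) that held in 1 of 8 fits, without LKO replicate 2. Apoa1, the most abundant target, had log2 fold changes of 0.00 (SE 0.29) in males and -0.26 (SE 0.29) in females. In female against male controls no target of AHR, HNF4 alpha, C/EBP alpha or FOXA2 passed in edgeR, where 2, 2 and 3 of the 3 lists had an unadjusted p under 0.05.

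Targets of C/EBP alpha and FOXA2 were 11 genes tested. None passed in males in edgeR or DESeq2, where 1 higher and 3 lower had an unadjusted p under 0.05 in edgeR. In females 1 rose, beside 2.09% called higher over all genes tested. It was Igfbp1, an insulin-repressed binding protein of growth factors, at 41.2, 28.5, 25.0 and 28.5 CPM in CRE- replicates 1 to 4. In LKO replicates 1 to 4 it was at 117, 62.8, 104 and 728 CPM. LKO replicate 4 stood far above the rest. In log2 the fold change was 3.04 (SE 0.69, Benjamini-Hochberg adjusted p = 0.0266 by edgeR quasi-likelihood F). It was 1.62 without LKO replicate 4, where the call was lost, as it was without CRE- replicates 2, 3 and 4. Alb, the most abundant, had log2 fold changes of -0.33 (SE 0.24) in males and -0.69 (SE 0.24, edgeR quasi-likelihood F, Benjamini-Hochberg adjusted p = 0.103) in females, where it passed in DESeq2. The list's median was -0.33 in males and -0.37 in females, while Cebpa was at -0.09 and -1.002.

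Genes known to respond to estrogen, read beside Esr1, were 10, of which 7 were tested. None passed in males in edgeR or DESeq2, where 1 lower had an unadjusted p under 0.05 in edgeR. In females 2 of the 7 fell, beside 2.15% called lower over all genes tested. Prlr, the prolactin receptor, was at 343, 432, 362 and 458 CPM in female CRE- replicates 1 to 4 and at 171, 223, 188 and 125 CPM in female LKO replicates 1 to 4. Its log2 fold change was -1.17 (SE 0.23, Benjamini-Hochberg adjusted p = 0.0176 by edgeR quasi-likelihood F), lost without CRE- replicate 2 or 4. Lifr, the receptor of leukemia inhibitory factor, fell in females, its controls being at 194 ± 48.8 CPM (SD, 4 mice) and its LKO mice at 95.0 ± 18.5 CPM (SD, 4 mice), a log2 fold change of -1.03 (SE 0.22, edgeR quasi-likelihood F, Benjamini-Hochberg adjusted p = 0.0213), lost without CRE- replicates 2 or 4 or LKO replicate 1. In males Prlr had a log2 fold change of -0.28 (SE 0.23) and Lifr -0.30 (SE 0.22), and the list ran from -0.78 to 0.29, with medians of -0.07 in males and -0.44 in females.

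Prlr was also higher in female than in male controls, at 399 ± 54.9 CPM (SD, 4 mice) and 122 ± 40.3 CPM (SD, 4 mice), a log2 difference of 1.71 (SE 0.24, Benjamini-Hochberg adjusted p = 0.00108 by edgeR quasi-likelihood F). Agt, the angiotensin precursor, was at 979 ± 98.3 CPM (SD, 4 mice) in female and 530 ± 108 CPM (SD, 4 mice) in male controls. Its log2 difference was 0.88 (SE 0.20, edgeR quasi-likelihood F, Benjamini-Hochberg adjusted p = 0.0417), which held in 1 of 8 fits, without male CRE- replicate 2. The Agt call was also lost with no filter on low counts (Benjamini-Hochberg adjusted p = 0.0775 by edgeR) and with the 2 control groups alone (Benjamini-Hochberg adjusted p = 0.0614 by edgeR). The interaction of sex and genotype for Prlr was -0.90 in log2 (SE 0.33, Benjamini-Hochberg adjusted p = 0.236 by edgeR quasi-likelihood F).

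Of 4 enzymes that inactivate or release estrogens, the ligands of Esr1, 1 rose and 1 fell in females, beside 2.09% higher and 2.15% lower over all genes, and none passed in males in edgeR or DESeq2, where 2 higher had an unadjusted p under 0.05 in edgeR. Hsd17b2, which oxidizes estradiol to estrone, fell in females, its controls being at 157 ± 20.3 CPM (SD, 4 mice) and its LKO mice at 79.8 ± 26.7 CPM (SD, 4 mice), a log2 fold change of -0.98 (SE 0.24, edgeR quasi-likelihood F, Benjamini-Hochberg adjusted p = 0.0334) that held in 2 of 8 fits, without LKO replicates 2 and 3. Sts, the steroid sulfatase that frees estrogens from their sulfates, rose in females, its controls being at 21.3 ± 1.90 CPM (SD, 4 mice) and its LKO mice at 34.6 ± 6.33 CPM (SD, 4 mice), a log2 fold change of 0.70 (SE 0.17, Benjamini-Hochberg adjusted p = 0.0334 by edgeR quasi-likelihood F) that held in 2 of 8 fits, without LKO replicates 3 and 4. With the 2 female groups alone neither call held. In males Hsd17b2 went the other way, with a log2 fold change of 0.53 (SE 0.24), and Sts was at 0.25 (SE 0.17), the groups overlapping for both.

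**Figure D3:**
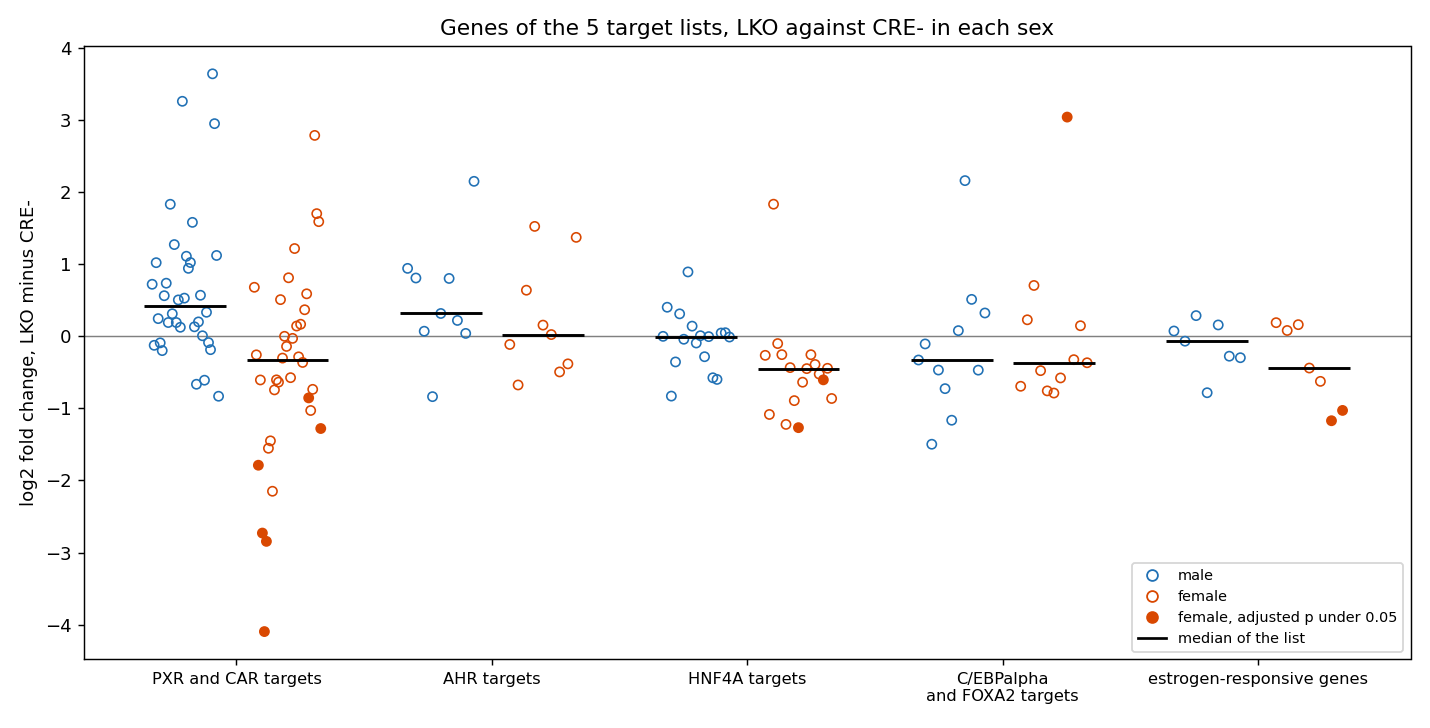
Log2 fold change of LKO against CRE- mice for each tested gene of the 5 target lists in males and females, with the median of each list as a line and filled points for an adjusted p under 0.05. In females 11 genes pass, the lowest being Cyp3a41b at -4.10 and the highest Igfbp1 at 3.04, and in males none does.

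Markers of other cells moved in the same female comparison as these targets. Macrophage markers were above 0 in log2 fold change for 9 of 9 genes in females, with 1 called, and their sum was 865 ± 254 CPM (SD, 4 mice) in female CRE- and 2311 ± 1264 CPM (SD, 4 mice) in female LKO mice, Cd5l being the most abundant. Neutrophil markers, with S100a9 the most abundant, summed to 22.6 ± 9.17 CPM (SD, 4 mice) in female CRE- mice and to 112, 44.3, 59.3 and 506 CPM in female LKO replicates 1 to 4, so their LKO mean of 180 CPM rested on replicate 4, with 2 of 6 called. Markers of proliferating cells, with Mki67 the most abundant, summed to 10.05 ± 5.35 CPM (SD, 4 mice) and 38.1 ± 26.3 CPM (SD, 4 mice), with 3 of 6 called. Over all genes tested 2.09% were called higher in females. Leaving out female CRE- replicates 1 to 4 and then LKO replicates 1 to 4 gave 0, 0, 0, 0, 0, 5, 0 and 1 calls for macrophages, 1, 0, 0, 0, 0, 6, 5 and 0 for neutrophils and 1, 0, 0, 1, 0, 3, 2 and 2 for proliferating cells, and DESeq2 called 7, 6 and 5. No marker of these lists was at 0 in all libraries. Female LKO replicate 1, with the highest macrophage sum, had the highest Esr1 and the lowest Cebpa and Foxa2 of its group. The part of these cells, and of the lower hepatocyte marker sum, in the values of the 8 genes and of their targets was not tested.

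In males the summed macrophage markers were 873 ± 576 CPM (SD, 4 mice) in CRE- and 915 ± 311 CPM (SD, 4 mice) in LKO mice, and no marker passed in edgeR, while DESeq2 called 1 neutrophil and 1 periportal marker, and in edgeR 5 of 6 neutrophil and 4 of 7 periportal markers were lower at an unadjusted p under 0.05. Summed markers of T and NK lymphocytes, of B and plasma cells, endothelium, stellate cells and fibroblasts, and cholangiocytes in female LKO mice were at 1.23, 1.45, 1.18, 0.993 and 1.36 times the female control mean, and 1 of their genes, Cdh5, was called higher. Among all genes tested 2.09% were called higher in females. For the endothelial list, to which Cdh5 belongs, the count was 0 without female CRE- replicates 2, 3 and 4 and LKO replicate 1, and 2 without LKO replicate 2. Periportal markers summed to 5749 ± 885 CPM (SD, 4 mice) in male CRE- and 2723 ± 1121 CPM (SD, 4 mice) in male LKO mice, and to 5897 ± 904 CPM (SD, 4 mice) and 3561 ± 2431 CPM (SD, 4 mice) in females, with Ass1 the most abundant and Cyp2f2 called lower in females. Pericentral markers, mostly Cyp2e1, summed to 7125 ± 3850 CPM (SD, 4 mice) and 8770 ± 3115 CPM (SD, 4 mice) in males and to 7727 ± 1014 CPM (SD, 4 mice) and 7075 ± 3613 CPM (SD, 4 mice) in females.

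The genes most like each of the 8 in pattern over the 16 libraries were sought among 13078 others with a mean of at least 1 CPM. For Esr1 they were Srgap3 (Pearson r = 0.916), Abca3 (r = 0.908) and Pcdh18 (r = 0.898). Without the 2 libraries farthest from the Esr1 median these were 0.916, 0.909 and 0.877. After the group means were taken out they were 0.835, 0.625 and 0.875, so for Abca3 more of the likeness lay between the groups. Srgap3 and Pcdh18 are scarce, at means of 3.06 and 1.16 CPM, while Abca3 was at 102 CPM. For Cebpa the nearest were Pex6 (r = 0.943), Slc25a10 (r = 0.937) and Akr7a5 (r = 0.936), and for Nr1i3 Pex3 (r = 0.930), Acadm (r = 0.925) and Mterf3 (r = 0.918).

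For Nr1i2 they were Cdip1 (r = 0.918), Emc7 (r = 0.913) and Cgrrf1 (r = 0.898), and for Hnf4a Man1a (r = 0.861) and Sacm1l (r = 0.828). For Rxra they were Gm46371 (r = 0.862), Cog1 (r = 0.794) and Fbxw4 (r = 0.787). For Foxa2 they were A430046D13Rik (r = 0.859), Adk (r = 0.845) and Agxt2 (r = 0.843), with r falling to between 0.591 and 0.739 without the 2 libraries farthest from its median. Ahr had the lowest likeness, with Nob1 (r = 0.790), Kctd3 (r = 0.789) and Twf1 (r = 0.745). These are the highest of many values over mice of 4 groups and are a description.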

How the data were processed

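Per the file headers and the submitters' notes, the authors aligned reads to GRCm39 with STAR 2.7.1a and counted them per gene and strand with featureCounts of Subread 2.0.6. The deposited counts are raw reads for each gene in each library, and the command did not ask for read pairs to be counted as 1, so both mates can count. Reads that map to several places, or to more than 1 gene, are not counted by that program's defaults, which bears on near-identical genes.

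From the counts, filterByExpr (minimum count 10) kept 16742 genes, and the 16 libraries were fitted together as 4 groups in edgeR 4.0.16 (R 4.3.3) with TMM, quasi-likelihood F tests and adjustment by Benjamini-Hochberg over all genes tested (threshold 0.05). SE is the log2 fold change over the root of the F statistic. Log2 CPM used a prior count of 2. DESeq2 1.42.0, RLE scaling, no filter, the 2 groups alone, a replicate block and leaving out each mouse were alternatives. The test was also run on simulated counts with the same dispersion for every gene. That run does not bear on how firm the calls are in these mice.

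The members and lists were chosen with earlier results of these data known. Genes named are the 8 members, Gcgr, Xist and Ddx3y, for each list and comparison the 3 called genes with the smallest p, or else the most abundant gene, and the 3 genes most like each member. Some genes that this rule picks are not described here. Cyp3a41a, Ces2a, Cyp2a4, Cdh5 and Cyp2f2 were named after their values were seen. Ces6, G6pc and Tf matched no symbol.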

Additional observations from a re-analysis of the deposited data

Results flagged for a closer look

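In 3 of 36 groups of 4 mice, for the 8 genes and Gcgr, a mouse lay far from the other 3 relative to the range of its group, and chance gives about 1 in 20 such groups. Esr1 in female LKO replicate 1 was at 30.01 CPM, with the other 3 mice between 16.04 and 16.8 CPM. Foxa2 in male CRE- replicate 2 was at 49.5 CPM, with the others between 23.7 and 26.2 CPM. Gcgr in male CRE- replicate 3 was at 127 CPM, with the others between 190 and 193 CPM. The cause was not tested in any of them.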

How the results depend on the processing

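The log2 fold changes of Esr1 in each sex and their difference, and those of the other 7 genes, moved by less than 1 SD between mice under all 5 alternatives (4 for the difference). With each mouse left out, Esr1 was between -1.50 and -1.12 in males and between -1.57 and -1.24 in females, and the difference between -0.24 and 0.18. The count of the 8 genes past the threshold between control sexes was 0 under all alternatives.

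Counts of genes moved more. With DESeq2 the male, female and control sex counts were 339, 1816 and 509 in place of 76, 710 and 154, and the male target count was 2 in place of 0. With the 2 groups of a comparison alone, the female count was 119, the control sex count 249 and the female target count 2. With each mouse left out the counts lay between 26 and 49 in males, 87 and 1310 in females, 68 and 149 for control sex, 0 and 1 for male targets and 3 and 14 for female targets. The share of female calls that were higher was 49.3%, 58.7% with DESeq2, 39.5% with the 2 groups alone, 24.1% without female CRE- replicate 2 and 58.1% without female LKO replicate 2. The cause was not tested. With the replicate block the female count was 1244 and the female target count 17, in place of 11. The labels tie no replicate number to a shared litter or day. Deviations of same-numbered mice had a correlation above 0.1 in 6 of 8 pairs, not in all, and 9 of 16 libraries, not all, were closest to their own number. This hint of pairing comes from the data and not the design. Of the 3 genes most like Esr1, 2 stayed among the nearest 3 by Spearman rho and 0 after group means were taken out.

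The fewest reads behind a value of the 8 genes were 258, where both mates of a read pair can count, so depth limits the lowest levels most.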
